A study of Mus musculus with 30 samples.

Results

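The p53 target genes described here are 32 named mouse genes that p53 is known to switch on. They were taken by name, with earlier results of these data known and with Cdkn1a left out. All 32 had a row in both deposited gene tables, which hold 19468 gene rows for kidney and 19685 for pancreas. Of the 32, 31 reached 1 FPKM (fragments per kilobase, scaled to the mapped fragments of the library, a level per length) in at least 5 of 15 kidney libraries and were tested there among 12431 genes. In the pancreas 29 did and were tested among 10781 genes. Eda2r lay below that level in both tissues, and Pmaip1 and Polk lay below it in the pancreas.

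The mice were C57BL/6 and drank 0.2 mg/ml doxycycline over 7 days, after which poly(A) RNA of kidney and of pancreas was sequenced. Kidney libraries came from 5 i4F p53 KO, 5 i4F Ink4a/Arf KO and 5 i4F mice. Pancreas libraries came from 5 mice labelled p53 KO (a label that does not name i4F), from 5 i4F Ink4a/Arf KO and from 5 i4F mice. In i4F mice the drug turns on Oct4, Sox2, Klf4 and Myc, which together reprogram cells. Every group drank doxycycline, so no group shows the tissue without it. The labels give no age and no sex, and name neither the promoter that drives the factors nor the cells in which p53 (gene Trp53) or Ink4a/Arf (gene Cdkn2a) was lost.

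p53 is a transcription factor that is stabilised when DNA is damaged or when growth signals are too strong, and it binds an element of 2 decamers near its target genes. Arf, a product of the Ink4a/Arf locus, shields p53 from Mdm2, the ligase that marks it for destruction. The targets stop the cell cycle, start apoptosis, repair DNA, restrain growth signalling and alter metabolism, and some feed back on p53. Loss of p53 or of Ink4a/Arf is known to ease the reprogramming of cultured cells.

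Several facts of the libraries bear on the values. Trp53 had 10.1, 5.27, 4.90, 7.11 and 7.77 FPKM in i4F p53 KO kidneys, below all 10 other kidneys, at 13.9 to 17.9 FPKM in i4F Ink4a/Arf KO and 14.8 to 20.3 FPKM in i4F (log2 fold change -1.14 with SE 0.15 and adjusted p = 0.00547 against i4F). In the pancreas libraries labelled p53 KO it was not lower, at 6.65 to 24.8 FPKM against 1.64 to 6.99 FPKM in i4F as deposited. On that scale 91.2% of all genes tested were higher under the label. After the scaling to the median gene described below, Trp53 was at 4.17 to 6.66 FPKM against 3.55 to 6.96 FPKM in i4F, overlapping ranges. The label is thus not borne out by the Trp53 level there on either scale. That level cannot decide the genotype, since i4F p53 KO kidneys also kept Trp53 transcript, at 4.90 to 10.1 FPKM. The pancreas groups also differ in the acinar sums below. All 10 proximal tubule markers were above 0 in every kidney group, with sums of 8534 to 42816 FPKM in i4F p53 KO, 25848 to 67940.1 FPKM in i4F Ink4a/Arf KO and 24558 to 86054 FPKM in i4F. Of 19 acinar markers found in the tables, 18 or 19 were above 0 in each pancreas group (Pnlip was listed at 0 in all 5 i4F pancreases), with sums of 2295 to 342823 FPKM in libraries labelled p53 KO, 514222 to 565556 FPKM in i4F Ink4a/Arf KO and 369945 to 531254 FPKM in i4F. By the level of Xist, 3 kidney and 4 pancreas libraries are female, and none of them is p53 KO.

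Promoter windows of RefSeq genes (GRCm38.p6), each 250 bases before to 50 bases after a start, were at hand for 24 of the 32 genes and gave 36 windows; Zmat3, Trp53inp1, Xpc, Tnfrsf10b, Perp, Pmaip1, Ddb2 and Rrm2b had none. Each window was searched for the p53 response element consensus, 2 decamers of 10 letters with a spacer of up to 13 bases, which reads alike on both strands. The best match of a window was scored by how many of the 20 letters fit, with the fixed C and G of each decamer required. Over all 32851 windows, 0.627% held a match of at least 19 letters, 4.09% of at least 18 and 15.6% of at least 17. Among the 36 windows of these genes, 2 reached 19 letters, in Ccng1 and in a window of Rps27l, and 2 more reached 18, in Bax and in a window of Sesn1. The stretches below are shown because they hold those 4 matches, and because Mgmt and Plk2 fell in the kidney with 17 and 15 letters as their best. Capitals mark the 2 decamers, and lower case between them is the spacer.
Ccng1, chr11:40755422-40755521, minus strand: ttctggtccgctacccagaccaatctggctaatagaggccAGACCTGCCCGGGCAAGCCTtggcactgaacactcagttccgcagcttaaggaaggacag
Mgmt, chr7:136894336-136894413, plus strand: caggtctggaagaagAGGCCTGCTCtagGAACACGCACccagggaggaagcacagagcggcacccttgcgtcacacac
Plk2, chr13:110394830-110394942, plus strand: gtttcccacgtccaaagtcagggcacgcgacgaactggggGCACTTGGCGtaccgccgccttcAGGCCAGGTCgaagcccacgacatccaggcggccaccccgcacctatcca
Bax, chr7:45467050-45467148, minus strand: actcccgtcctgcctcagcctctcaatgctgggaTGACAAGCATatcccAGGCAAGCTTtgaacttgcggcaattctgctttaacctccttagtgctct
Sesn1, chr10:41887213-41887315, plus strand: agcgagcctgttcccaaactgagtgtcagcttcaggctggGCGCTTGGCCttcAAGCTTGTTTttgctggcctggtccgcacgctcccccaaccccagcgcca
Rps27l, chr9:66946296-66946315, plus strand: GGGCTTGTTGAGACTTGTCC

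The Ccng1 match lies 176 to 195 bases before the start, with no spacer and 1 letter off the consensus. The Bax match lies 192 to 216 bases before the start, inside the annotated gene Gm45808. That of Sesn1 lies before an inner start, within an intron of the longer Sesn1 transcripts. The Rps27l match lies within the gene, outside its annotated exons. None of the printed stretches overlaps an annotated exon (GENCODE M21). A match of letters is a description of the sequence; no binding was measured here.

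**Figure D1:**
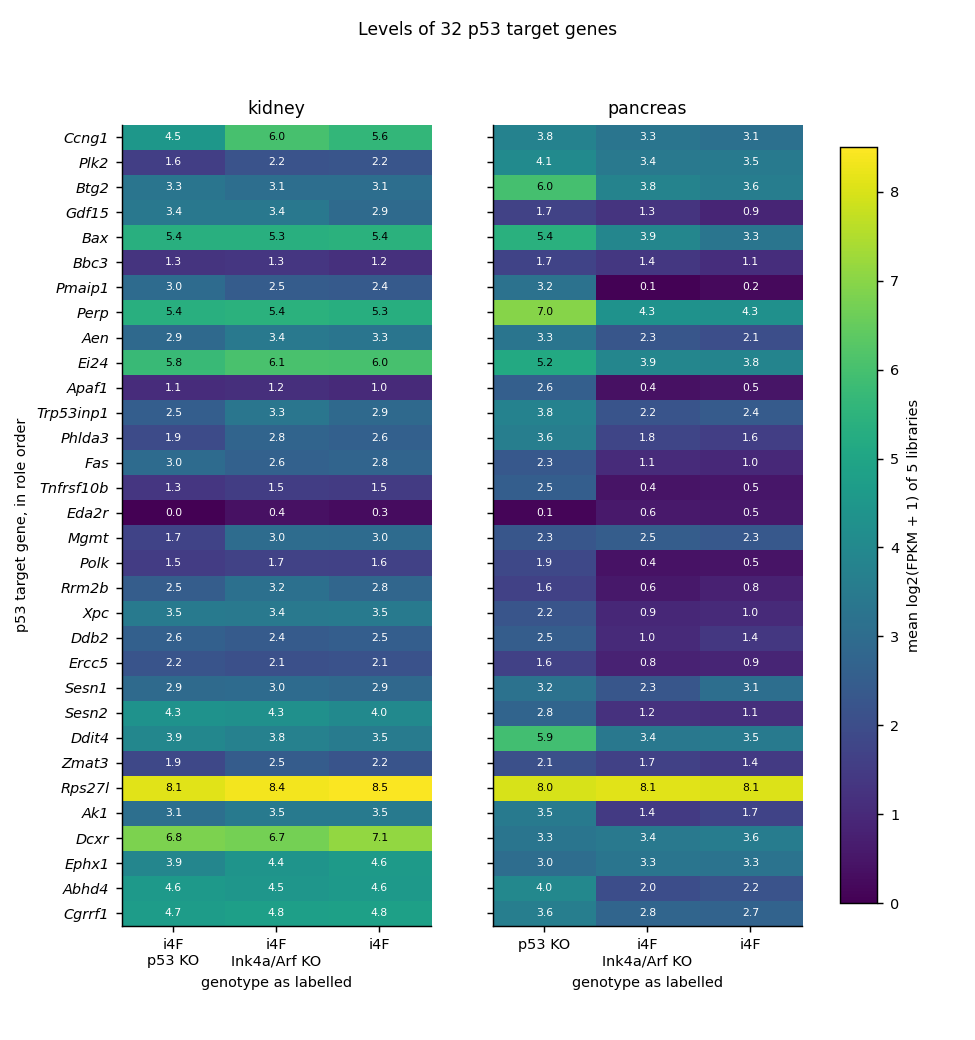
Mean log2(FPKM + 1) of 5 libraries for each of the 32 p53 target genes (rows, in order of role) by genotype (columns) in kidney (left) and pancreas (right). Rps27l is the highest in every group, Eda2r is near 0 in i4F p53 KO kidneys and in pancreases labelled p53 KO, and most pancreas rows are higher under the p53 KO label. Values are as deposited, where 91.2% of all genes tested were higher under that label than in i4F.

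FPKM is given per length, so levels can be set side by side between genes. In i4F p53 KO kidneys the mean levels ran from 0.0196 ± 0.0116 FPKM for Eda2r to 276 ± 19 FPKM for Rps27l (SD, n = 5), and in i4F kidneys from 0.205 ± 0.0822 FPKM to 355 ± 57.0 FPKM for the same genes. Ccng1 was the 8th highest of the 32 in i4F p53 KO kidneys and the 4th highest in i4F Ink4a/Arf KO and i4F kidneys. Over the genes at 1 FPKM or more, the median coefficient of variation between mice was 22.5% among i4F p53 KO kidneys, 14% among i4F Ink4a/Arf KO kidneys and 16.1% among i4F kidneys. It was 43.6% among pancreases labelled p53 KO, 23.0% among i4F Ink4a/Arf KO pancreases and 36.3% among i4F pancreases. These figures are of deposited FPKM and so include differences of scale between libraries. The factors of the scaling to the median gene ran from 1.31 to 3.93 within the p53 KO label. They ran from 0.496 to 0.641 in i4F Ink4a/Arf KO and from 0.463 to 1.00 in i4F pancreases.

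The first comparison asks what loss of p53 did to its targets in kidneys under the same induction. Against i4F, 3 of the 31 tested genes were lower in i4F p53 KO kidneys and 0 were higher, by limma with Benjamini-Hochberg adjusted p under 0.05; over all genes tested 0.169% were lower and 0.0885% higher. The 3 were Ccng1, Mgmt and Plk2. The genes were chosen with earlier results of these data known. Their counts beside the shares of all genes, here and in the next comparison, are thus a description and no test of the list. The median log2 fold change was -0.13 over the 31 genes and 0.03 over all genes tested, and 18 of 31 were below 0, against 44.6% of all genes. At an unadjusted p under 0.05 the count was 11 of 31, against 13.2% of all genes. All 5 i4F p53 KO kidneys lay below all 5 i4F kidneys for 4 genes (1.65% of all genes) and above them for 0 (0.845% of all genes).

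Against i4F Ink4a/Arf KO kidneys, which lack Ink4a and Arf but keep the p53 gene, 5 of 31 genes were lower in i4F p53 KO and 0 were higher (0.161% and 0.105% of all genes). These were Ccng1, Mgmt, Trp53inp1, Plk2 and Zmat3. The median was -0.09 over the 31 genes and 0.03 over all genes, and 12 of 31 had an unadjusted p under 0.05, against 18% of all genes. For 7 genes all 5 i4F p53 KO kidneys lay below all 5 i4F Ink4a/Arf KO kidneys (1.54% of all genes), and for 0 above (1.92%). Both comparisons use the same 5 i4F p53 KO kidneys. The count of 5 depended on single libraries: it was 2 to 8 with 1 left out, moving by over 1.5 times without any of the 15 but i4F p53 KO replicate 1 and i4F replicate 5, and 3 without the 3 female kidneys. Against i4F the count was 2 to 4 with 1 left out. Ccng1 and Mgmt passed in each of those runs.

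**Figure D2:**
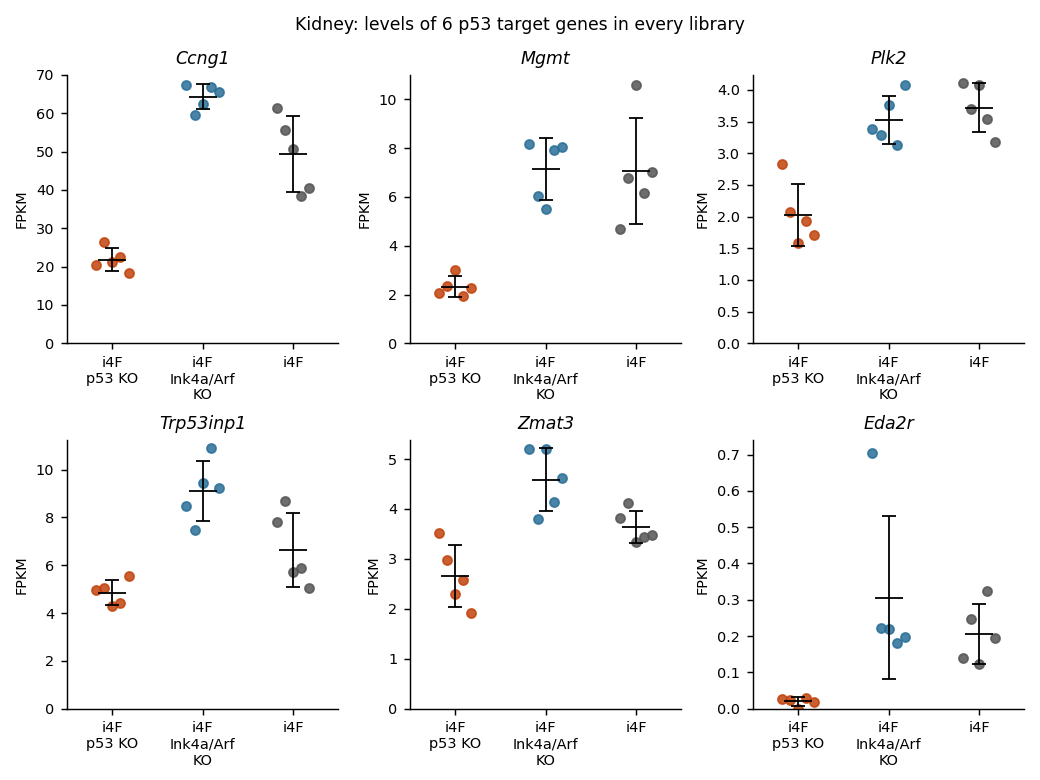
FPKM in every kidney library for the 5 genes that passed a kidney test and for Eda2r, which lay below the level for testing; points are libraries, the bar is the mean and the whiskers 1 SD (n = 5). For Ccng1, Mgmt, Plk2 and Eda2r the i4F p53 KO points lie below both other genotypes.

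Ccng1 encodes cyclin G1, which brings a phosphatase to Mdm2 and so feeds back on p53 (chr11:40748552-40755311, minus strand, mm10). It had 20.4, 26.4, 21.3, 22.5 and 18.3 FPKM in i4F p53 KO kidneys, 67.4, 59.5, 62.3, 66.8 and 65.4 FPKM in i4F Ink4a/Arf KO kidneys and 61.5, 55.6, 50.6, 38.3 and 40.4 FPKM in i4F kidneys. The highest i4F p53 KO kidney was below the lowest of all other kidneys (log2 fold change -1.13 with SE 0.13 and adjusted p = 0.00109 against i4F; log2 fold change -1.53 with SE 0.13 and adjusted p = 3.25e-05 against i4F Ink4a/Arf KO). The lowest 2 i4F values, 38.3 and 40.4 FPKM, are the 2 female i4F kidneys; without female kidneys the fold change against i4F was -1.33 (adjusted p = 0.000939). Plk2, polo-like kinase 2, acts in centriole duplication and checkpoint arrest (chr13:110395046-110400844, plus strand). It had 2.84, 2.07, 1.58, 1.92 and 1.72 FPKM in i4F p53 KO, 3.38, 3.28, 3.76, 3.13 and 4.07 FPKM in i4F Ink4a/Arf KO and 4.11, 3.69, 4.09, 3.55 and 3.18 FPKM in i4F kidneys. The i4F p53 KO values lie below all 10 others, and replicate 1 is the nearest to them (log2 fold change -0.65 with SE 0.11 and adjusted p = 0.0227 against i4F; log2 fold change -0.59 with SE 0.11 and adjusted p = 0.0407 against i4F Ink4a/Arf KO). Its call against i4F was lost without replicate 3 or 4 of i4F p53 KO, or replicate 2, 3 or 4 of i4F, with an adjusted p of up to 0.0788, and without the female kidneys (adjusted p = 0.0575). The call against i4F Ink4a/Arf KO was lost in 12 of 15 runs that left out a library, all but those without replicate 1 or 2 of i4F p53 KO or replicate 5 of i4F (adjusted p up to 0.121), and also without the female kidneys (adjusted p = 0.0579).

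The other 2 cell cycle genes did not pass. Btg2, an antiproliferative co-factor, averaged 9.58 ± 4.34 FPKM in i4F p53 KO and 7.68 ± 2.85 FPKM in i4F kidneys (SD, n = 5 each; log2 fold change 0.25, adjusted p = 0.756). Gdf15, a secreted stress cytokine, had 41.6, 3.46, 4.41, 20.9 and 5.09 FPKM in i4F p53 KO kidneys, against 7.66 to 14.7 FPKM in i4F Ink4a/Arf KO and 4.56 to 8.93 FPKM in i4F kidneys. Replicates 1 and 4 of i4F p53 KO stand above all other kidneys and the other 3 lie within or below the i4F range, so the difference is within the spread of the group (log2 fold change 0.49 with SE 0.51 and adjusted p = 0.719).

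Of the 9 apoptosis genes, 0 passed against i4F and 1, Trp53inp1, passed against i4F Ink4a/Arf KO. Against i4F 5 of 9 were below 0, beside 44.6% of all genes. Against i4F Ink4a/Arf KO 7 of 9 were below 0, beside 44.5% of all genes. Trp53inp1 encodes a nuclear protein that promotes the phosphorylation of p53 and autophagy (chr4:11156431-11174379, plus strand). It had 4.95, 5.04, 4.29, 4.44 and 5.56 FPKM in i4F p53 KO, 8.48, 7.47, 9.44, 10.9 and 9.23 FPKM in i4F Ink4a/Arf KO and 7.81, 8.68, 5.72, 5.87 and 5.03 FPKM in i4F kidneys. All i4F p53 KO kidneys lay below all i4F Ink4a/Arf KO kidneys but overlapped i4F (log2 fold change -0.78 with SE 0.13 and adjusted p = 0.0290 against i4F Ink4a/Arf KO; log2 fold change -0.36 with SE 0.13 and adjusted p = 0.245 against i4F). That call was lost without replicate 3 or 4 of i4F p53 KO, or replicate 3, 4 or 5 of i4F Ink4a/Arf KO (adjusted p up to 0.109). Ei24, a membrane protein of the endoplasmic reticulum, had values close together, at 53.4, 56.6, 50.2, 55.9 and 48.6 FPKM in i4F p53 KO, 70.1, 61.7, 67.0, 68.3 and 63.2 FPKM in i4F Ink4a/Arf KO and 62.0, 69.3, 64.4, 62.9 and 62.0 FPKM in i4F kidneys. All 5 i4F p53 KO values lie below the 10 others, and it did not pass (log2 fold change -0.27, adjusted p = 0.0996 against i4F; log2 fold change -0.32, adjusted p = 0.0618 against i4F Ink4a/Arf KO).

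The other apoptosis genes did not pass in either kidney comparison. Bax averaged 40.2 ± 6.11 FPKM in i4F p53 KO, 40.0 ± 5.62 FPKM in i4F Ink4a/Arf KO and 42.0 ± 5.29 FPKM in i4F kidneys, and the 95% interval of its log2 fold change against i4F was -0.33 to 0.21. Bbc3 (PUMA) averaged 1.48 ± 0.471 FPKM in i4F p53 KO and 1.27 ± 0.234 FPKM in i4F kidneys (interval -0.15 to 0.38). Pmaip1 (NOXA) was at 11.8, 4.89, 5.25, 10.8 and 4.26 FPKM in i4F p53 KO kidneys and 3.34 to 5.32 FPKM in i4F kidneys; replicates 1 and 4, the kidneys with high Gdf15, are again the high ones (log2 fold change 0.57, adjusted p = 0.393). Perp, a membrane protein of desmosomes, averaged 40.9 ± 6.37 FPKM in i4F p53 KO and 39.7 ± 3.27 FPKM in i4F kidneys (interval -0.20 to 0.26). Aen, a nuclease, Phlda3, which restrains Akt, and Apaf1, the scaffold that activates caspase-9, had log2 fold changes of -0.41, -0.65 and 0.06 against i4F (adjusted p = 0.244, 0.343 and 0.894).

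Of the 3 death receptors, Fas and Tnfrsf10b (the mouse TRAIL receptor) did not pass in either comparison, with log2 fold changes of 0.22 and -0.15 against i4F (adjusted p = 0.456 and 0.618). Eda2r, the receptor of ectodysplasin A2 (chrX:97333840-97377216, minus strand), was below the level for testing. Its values were 0.0266, 0.0228, 0, 0.0295 and 0.0191 FPKM in i4F p53 KO, 0.705, 0.224, 0.219, 0.180 and 0.197 FPKM in i4F Ink4a/Arf KO and 0.140, 0.246, 0.122, 0.324 and 0.195 FPKM in i4F kidneys. The i4F p53 KO kidneys are all near 0 and below the 10 others. With no filter on low values it did not pass by limma, at -0.24 (SE 0.08, adjusted p = 0.301) against i4F and -0.34 (SE 0.08, adjusted p = 0.135) against i4F Ink4a/Arf KO; 1 FPKM is added before the log, which understates a change this far below 1 FPKM.

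Among the 6 genes of DNA repair and nucleotide supply, 1 was lower in both comparisons. Mgmt encodes the protein that removes methyl groups from guanine (chr7:136894614-137130266, plus strand). It had 2.05, 2.35, 3.03, 1.92 and 2.28 FPKM in i4F p53 KO kidneys, 8.16, 6.05, 5.49, 7.92 and 8.06 FPKM in i4F Ink4a/Arf KO kidneys and 4.70, 6.78, 10.6, 6.18 and 7.03 FPKM in i4F kidneys. The 5 i4F p53 KO values lie below all 10 others (log2 fold change -1.25 with SE 0.17 and adjusted p = 0.00519 against i4F; log2 fold change -1.29 with SE 0.17 and adjusted p = 0.00453 against i4F Ink4a/Arf KO). Rrm2b, the p53-inducible subunit of ribonucleotide reductase, averaged 4.80 ± 1.06 FPKM in i4F p53 KO, 7.93 ± 1.06 FPKM in i4F Ink4a/Arf KO and 6.03 ± 0.974 FPKM in i4F kidneys. Its 5 i4F p53 KO values lay below all i4F Ink4a/Arf KO values and it did not pass (log2 fold change -0.63, adjusted p = 0.0605; log2 fold change -0.29, adjusted p = 0.378 against i4F). Xpc and Ddb2, which find ultraviolet lesions, Ercc5, which cuts beside them, and Polk, a polymerase that copies past damage, ranged from -0.13 to 0.08 against i4F, with adjusted p values of 0.592 or more. For Xpc the 95% interval was -0.19 to 0.12, the spread between mice being 4.14% of the mean in i4F p53 KO.

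In the remaining groups 1 gene, Zmat3, passed against i4F Ink4a/Arf KO and 0 passed against i4F. Zmat3, a zinc finger protein that binds RNA (chr3:32334792-32366014, minus strand), had 3.51, 2.98, 2.29, 2.59 and 1.92 FPKM in i4F p53 KO, 5.21, 3.80, 5.19, 4.14 and 4.61 FPKM in i4F Ink4a/Arf KO and 3.82, 4.11, 3.34, 3.44 and 3.49 FPKM in i4F kidneys. The i4F p53 KO kidneys lie below every i4F Ink4a/Arf KO kidney, and replicate 1 lies within the i4F range (log2 fold change -0.62 with SE 0.12 and adjusted p = 0.0408 against i4F Ink4a/Arf KO; log2 fold change -0.36 with SE 0.12 and adjusted p = 0.196 against i4F). The call was lost in 12 of the 15 runs that left out a library, all but those without replicate 1 or 2 of i4F p53 KO or replicate 5 of i4F (adjusted p up to 0.121), and without the female kidneys (adjusted p = 0.0759). Rps27l, a ribosomal protein close in sequence to Rps27, between which counting could divide reads, averaged 276 ± 19 FPKM in i4F p53 KO and 355 ± 57.0 FPKM in i4F kidneys (log2 fold change -0.35, adjusted p = 0.156). The sestrins Sesn1 and Sesn2 and Ddit4, which restrain mTOR signalling, were all above 0 against i4F, at 0.06, 0.27 and 0.38 (adjusted p = 0.922, 0.576 and 0.730). Of the 5 metabolic and other genes, Ephx1, the microsomal epoxide hydrolase, was farthest from 0 (log2 fold change -0.71 with SE 0.20 and adjusted p = 0.124), with 11.9, 12.4, 11.5, 14.1 and 22.4 FPKM in i4F p53 KO and 20.5, 20.7, 18.9, 29.5 and 30.3 FPKM in i4F kidneys; replicate 5 of i4F p53 KO alone reaches the i4F range. Ak1, Dcxr, Abhd4 and Cgrrf1 ranged from -0.39 to 0.02 against i4F.

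**Figure D3:**
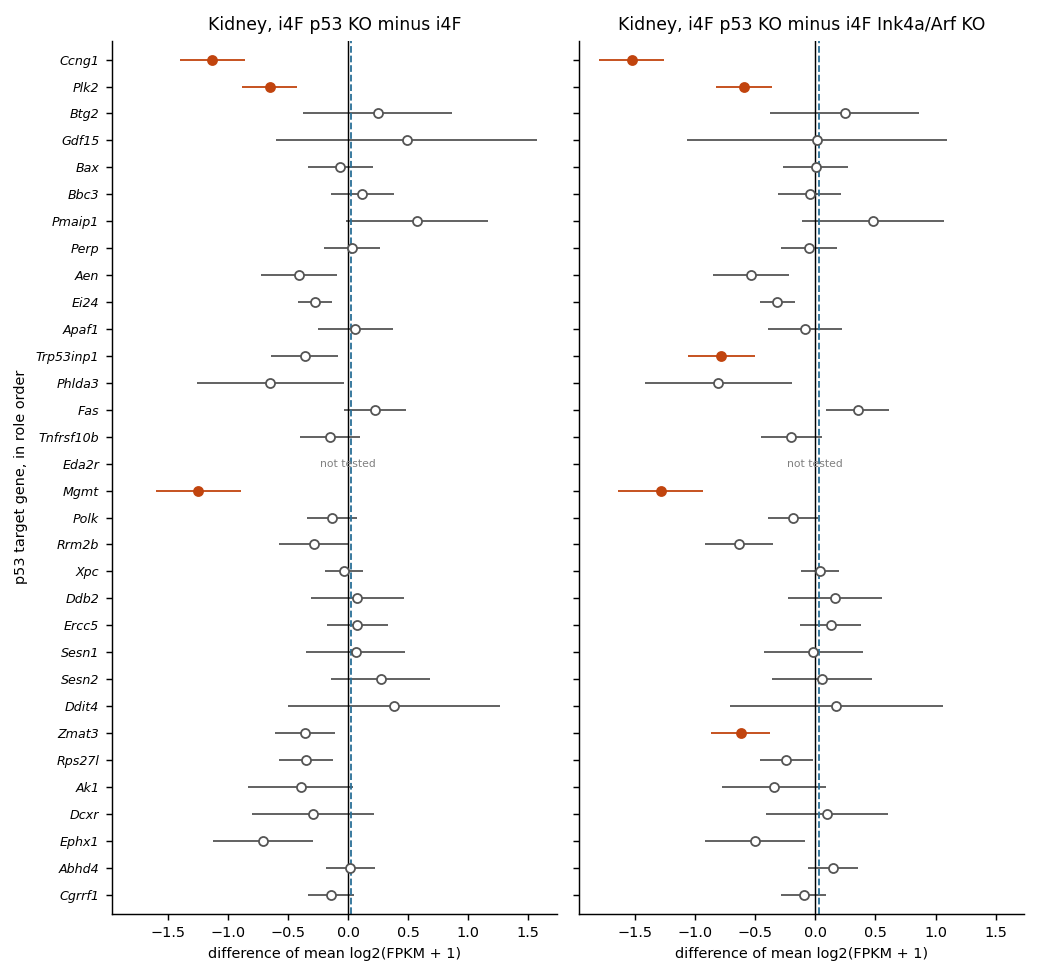
Differences of mean log2(FPKM + 1) with 95% intervals from limma for the p53 target genes in kidney, i4F p53 KO minus i4F (left) and minus i4F Ink4a/Arf KO (right); filled points passed the adjusted threshold and the dashed line is the median of all genes tested. The filled points, 3 on the left and 5 on the right, are all below 0. Of all genes tested, 0.169% were lower and 0.0885% higher on the left, and 0.161% lower and 0.105% higher on the right.

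Neutrophil marker sums were higher in i4F p53 KO kidneys than in the other kidneys. Acinar marker sums overlapped between genotypes, but fewer acinar markers had a median of 1 FPKM or more in i4F Ink4a/Arf KO kidneys. The 8 neutrophil markers summed to 59.0 to 173 FPKM in i4F p53 KO, 14.7 to 58.3 FPKM in i4F Ink4a/Arf KO and 13.8 to 24.9 FPKM in i4F kidneys, with none listed at 0 throughout a group. Sums of the 19 acinar markers were 622 to 3953 FPKM in i4F p53 KO, 631 to 1915 FPKM in i4F Ink4a/Arf KO and 1433 to 3932 FPKM in i4F kidneys. Of these markers, 19, 5 and 18 had a median of 1 FPKM or more in the same order of groups. Clps had 17.5 to 220 FPKM in i4F p53 KO, 0.390 to 7.37 FPKM in i4F Ink4a/Arf KO and 13.4 to 216 FPKM in i4F kidneys. Without the 4 kidneys above 100 FPKM of the acinar transcript Clps, 2 of the 31 genes were lower against i4F and 6 against i4F Ink4a/Arf KO, while the share of all genes called lower was 1.24% and 2.72%, above that of the full set. Those 4 were i4F p53 KO replicates 2, 3 and 4 (220, 197 and 191 FPKM) and i4F replicate 5 (216 FPKM). The run thus kept only replicates 1 and 5 of i4F p53 KO and was unbalanced. In tissue RNA, fewer cells of a type and less RNA per cell cannot be told apart, and the part of cell makeup in these results was not tested.

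Between i4F Ink4a/Arf KO and i4F kidneys, both of which keep p53, 0 of 31 genes passed in either direction, nor did any of 12431 genes (0% higher, 0% lower) by limma. The unadjusted count was 4 of 31, against 3.2% of all genes, and all 4 were higher in i4F Ink4a/Arf KO: Trp53inp1 (0.42), Ccng1 (0.40), Rrm2b (0.35) and Zmat3 (0.26), each with adjusted p = 0.997. Of these, Ccng1 had 67.4, 59.5, 62.3, 66.8 and 65.4 FPKM in i4F Ink4a/Arf KO and 61.5, 55.6, 50.6, 38.3 and 40.4 FPKM in i4F kidneys, ranges that overlap by 1 kidney of each. The median over the 31 genes was 0.05 and that over all genes was near 0.

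The pancreas values first needed a common scale. As deposited, 91.2% of all genes were higher in libraries labelled p53 KO than in i4F and 2.25% lower, and the median gene differed by 1.58 on the log2 scale. Of the 29 p53 target genes tested, 22 were higher and 0 lower (22 at an unadjusted p under 0.05, against 93.5% of all genes), with a median of 1.24, below that of all genes. Relative to i4F Ink4a/Arf KO, 20 were higher and 0 lower (91.7% and 1.97% of all genes), with a median of 1.26 against 1.66 over all genes. As deposited, all 5 libraries labelled p53 KO lay above all 5 i4F pancreases for 13 of the 29 genes, against 73% of all genes. They lay above all 5 i4F Ink4a/Arf KO pancreases for 18 of the 29, against 85.6% of all genes. After median-of-ratios scaling, which sets each library by its median gene, the median of all genes was 0.03 in both comparisons. Scaled values are relative to that median gene and are called scaled below.

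On the scaled values, 3 of the 29 genes were higher and 14 lower in libraries labelled p53 KO than in i4F, where 34.9% of all genes were higher and 31.2% lower. The median over the 29 was -0.33, and 20 of 29 were below 0, against 48% of all genes. Against i4F Ink4a/Arf KO, 3 were higher and 15 lower (34.7% and 33% of all genes), with a median of -0.34 against 0.03. The 3 higher genes were Apaf1, Perp and Tnfrsf10b in both. Apaf1 and Tnfrsf10b reached 1 FPKM only in libraries labelled p53 KO, and so could be tested only because they were higher there; with any 1 of those 5 libraries left out neither was tested, and 1 gene, Perp, was higher. With 1 library left out, 13 to 15 genes were lower against i4F and 15 against i4F Ink4a/Arf KO in every run. In both comparisons Ccng1, Mgmt, Plk2, Zmat3, Ephx1, Dcxr, Rps27l, Sesn1, Ei24 and Cgrrf1 were lower in each run. On the scaled values all 5 libraries labelled p53 KO lay below all 5 i4F pancreases for 11 of the 29 genes (21.1% of all genes). They lay above all 5 for 3 (24.2%). Against i4F Ink4a/Arf KO these counts were 13 (24.1%) and 3 (27%).

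**Figure D4:**
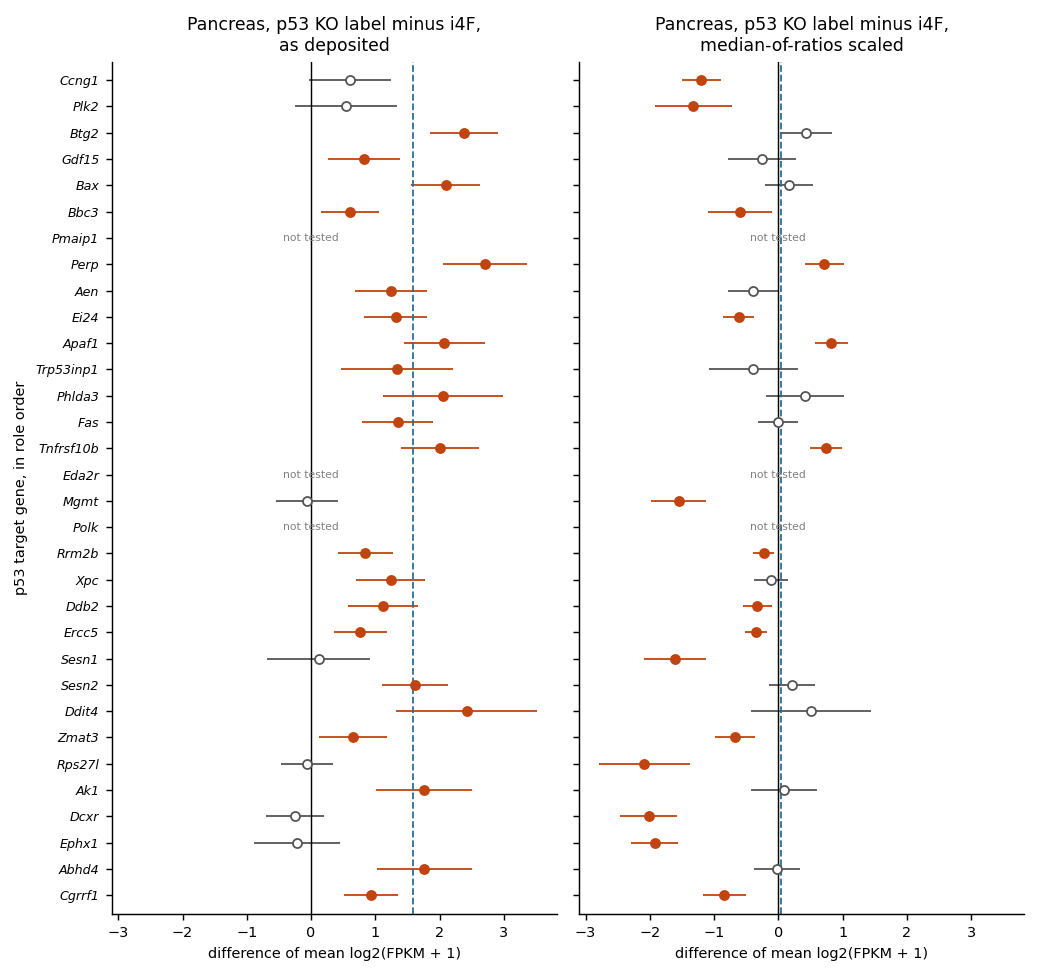
Differences of mean log2(FPKM + 1) with 95% intervals from limma, libraries labelled p53 KO minus i4F pancreas, as deposited (left) and after scaling (right); filled points passed the adjusted threshold and the dashed line is the median of all genes tested. The 29 genes sit mostly above 0 on the left, with 22 filled, and mostly below 0 on the right, with 3 filled above and 14 below. Of all genes tested, 91.2% were higher and 2.25% lower on the left, and 34.9% higher and 31.2% lower on the right.

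Of the 5 genes that fell in i4F p53 KO kidneys, 4 were lower under the p53 KO label on the scaled pancreas values and 0 on the deposited ones. Ccng1 as deposited had 16.3, 13, 9.45, 6.88 and 21.3 FPKM in libraries labelled p53 KO, 11.2, 9.20, 8.06, 10.5 and 6.09 FPKM in i4F Ink4a/Arf KO and 4.45, 5.84, 7.52, 10.9 and 13.3 FPKM in i4F pancreases (log2 fold change 0.61, adjusted p = 0.0628). Scaled, it had 4.15, 3.90, 4.5, 5.27 and 5.73 FPKM in libraries labelled p53 KO, 17.6, 14.5, 14, 16.4 and 12.3 FPKM in i4F Ink4a/Arf KO and 9.35, 12.6, 11.4, 10.9 and 16.8 FPKM in i4F pancreases. The deposited values overlap, and the scaled values do not (log2 fold change -1.20 with SE 0.14 and adjusted p = 6.08e-06 against i4F; log2 fold change -1.48 with SE 0.14 and adjusted p = 1.01e-06 against i4F Ink4a/Arf KO). Mgmt, scaled, averaged 1.51 ± 0.488 FPKM in libraries labelled p53 KO, 8.29 ± 2.38 FPKM in i4F Ink4a/Arf KO and 6.33 ± 1.25 FPKM in i4F (SD, n = 5 each; log2 fold change -1.55, adjusted p = 1.28e-05 against i4F), where the deposited means were 3.97 ± 1.12, 4.89 ± 1.33 and 4.14 ± 1.03 FPKM in the same order of groups. Plk2 was -1.32 (adjusted p = 0.000785) scaled and 0.54 (adjusted p = 0.174) as deposited. Zmat3 was lower once scaled and higher as deposited, with values given further on. Trp53inp1 did not pass on the scaled values (log2 fold change -0.39, adjusted p = 0.307), with 7.43, 3.0, 5.15, 6.17 and 3.45 scaled FPKM in libraries labelled p53 KO against 3.58, 4.37, 13.4, 12.8 and 4.17 in i4F.

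The 3 genes lower in kidney against i4F, Ccng1, Mgmt and Plk2, are among those 4. Of the 21 genes of any kind lower in that kidney comparison, 17 were tested in the pancreas, of which 8 were lower and 2 higher. For the comparison with i4F Ink4a/Arf KO, 4 of the 5 target genes lower in kidney were lower on the scaled pancreas values, and of 20 genes of any kind 15 were tested, 9 lower and 3 higher. The kidney and pancreas comparisons share no library.

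**Figure D5:**
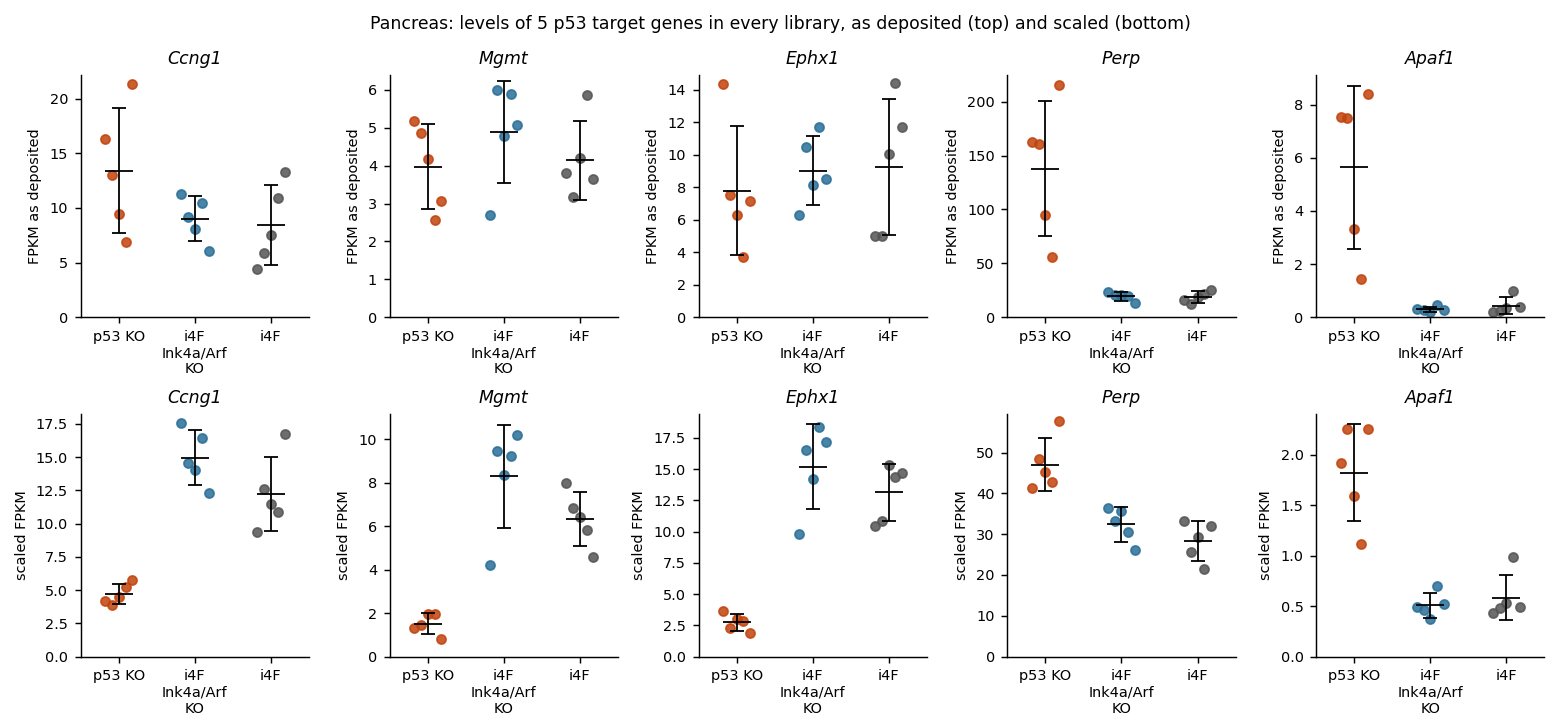
FPKM in every pancreas library for 5 genes, as deposited (top) and scaled (bottom); points are libraries, the bar is the mean and the whiskers 1 SD (n = 5). Ccng1, Mgmt and Ephx1 overlap between genotypes as deposited and lie lower under the p53 KO label once scaled, while Perp and Apaf1 lie higher on both scales.

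The lowest scaled fold changes belonged to metabolic, ribosomal and stress genes. Rps27l (chr9:66946086-66949516, plus strand) averaged 109.6 ± 67.0 scaled FPKM in libraries labelled p53 KO, 476 ± 79.3 scaled FPKM in i4F Ink4a/Arf KO and 417 ± 98.1 scaled FPKM in i4F pancreases (log2 fold change -2.08 with SE 0.33 and adjusted p = 6.85e-05), while as deposited it had 234, 241, 319, 271 and 213 FPKM in libraries labelled p53 KO and 261, 205, 250.4, 281 and 343 FPKM in i4F, with no difference past the spread (log2 fold change -0.06, adjusted p = 0.760). Dcxr, a reductase of sugars (chr11:120725399-120727281, minus strand), was -2.02 (adjusted p = 1.57e-06) and Ephx1 -1.93 (adjusted p = 4.83e-07) scaled, against -0.25 and -0.22 as deposited. Ephx1 (chr1:180976210-181020904, minus strand) had 3.65, 2.26, 2.99, 2.84 and 1.91 scaled FPKM in libraries labelled p53 KO, 9.80, 16.5, 14.2, 18.4 and 17.2 scaled FPKM in i4F Ink4a/Arf KO and 10.5, 10.9, 15.3, 14.4 and 14.7 scaled FPKM in i4F pancreases, with no overlap. Once scaled, 21.1% of all genes lay below i4F without overlap, and 24.1% below i4F Ink4a/Arf KO. Sesn1 was -1.61 (adjusted p = 2.70e-05) against i4F and -0.90 (adjusted p = 0.00287) against i4F Ink4a/Arf KO on the scaled values, and 0.12 and 0.91 as deposited. Its i4F pancreases are themselves spread, at 4.17, 4.14, 11.9, 15.6 and 6.39 FPKM as deposited, with the i4F replicates 3 and 4 the high ones.

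The genes of the apoptotic machinery went both ways. Perp (chr10:18845020-18857073, plus strand) had 162, 161, 94.9, 55.9 and 215 FPKM as deposited in libraries labelled p53 KO, 23.3, 21.1, 20.5, 19.5 and 12.9 FPKM in i4F Ink4a/Arf KO and 15.9, 11.9, 19.3, 21.5 and 25.4 FPKM in i4F pancreases, a rise on both scales (log2 fold change 2.71 with SE 0.31 and adjusted p = 8.14e-07 as deposited; log2 fold change 0.72 with SE 0.14 and adjusted p = 0.000421 scaled). Apaf1 had 7.54, 7.49, 3.34, 1.45 and 8.39 FPKM in libraries labelled p53 KO, 0.315, 0.290, 0.211, 0.448 and 0.260 FPKM in i4F Ink4a/Arf KO and 0.203, 0.223, 0.351, 0.987 and 0.394 FPKM in i4F pancreases (2.07 as deposited and 0.83 scaled). Tnfrsf10b had 6.21, 7.12, 3.38, 1.43 and 9.14 FPKM in libraries labelled p53 KO, 0.420, 0.418, 0.384, 0.365 and 0.219 FPKM in i4F Ink4a/Arf KO and 0.212, 0.265, 0.589, 0.746 and 0.436 FPKM in i4F pancreases (2.00 as deposited and 0.74 scaled). For all 3 the libraries labelled p53 KO lie above the 10 others, and replicate 4 of the p53 KO label is the lowest of its group. As deposited, 73% of all genes lay above i4F without overlap, and 85.6% above i4F Ink4a/Arf KO. Once scaled, these shares were 24.2% and 27%. Bax averaged 43.0 ± 11.6 FPKM in libraries labelled p53 KO and 9.32 ± 3.06 FPKM in i4F as deposited (log2 fold change 2.09, adjusted p = 1.39e-06), and 15.7 ± 2.97 and 13.9 ± 2.69 FPKM in the same groups scaled (log2 fold change 0.17, adjusted p = 0.414). Bax and Aen, set against i4F Ink4a/Arf KO, also changed sign between the scales, Bax at 1.52 and -0.55 and Aen at 1.02 and -0.78, past the threshold on both. Aen had 11.7, 9.44, 9.22, 6.38 and 8.42 FPKM in libraries labelled p53 KO and 4.60, 3.61, 4.29, 4.70 and 2.55 FPKM in i4F Ink4a/Arf KO as deposited, and 2.96, 2.84, 4.39, 4.88 and 2.26 FPKM against 7.18, 5.69, 7.49, 7.35 and 5.14 FPKM scaled. Phlda3, Fas and Trp53inp1 did not pass on the scaled values against i4F.

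For 7 genes the direction against i4F depended on the scale, higher as deposited and lower once scaled, past the threshold both times: Bbc3, Ei24, Zmat3, Cgrrf1, Rrm2b, Ddb2 and Ercc5. The share of all genes that turned in this way was not counted, so the 7 are not set apart from other genes. Of all genes tested, 91.2% were higher as deposited and 31.2% lower once scaled. Ei24 had 47.0, 41.8, 29.2, 21.3 and 40.9 FPKM in libraries labelled p53 KO and 10.1, 9.43, 13.7, 17.2 and 18.4 FPKM in i4F as deposited, and 11 to 16.3 FPKM against 17.2 to 23.1 FPKM scaled (log2 fold change 1.32 and -0.62; adjusted p = 4.20e-05 and 0.000237). Bbc3 had 3.58, 2.22, 1.96, 1.55 and 2.41 FPKM in libraries labelled p53 KO and 1.30, 1.08, 1.5, 0.883 and 1.05 FPKM in i4F as deposited, and 0.648 to 1.19 FPKM against 0.880 to 2.72 FPKM scaled (log2 fold change 0.61 and -0.60; adjusted p = 0.0129 and 0.0348). Ei24 separates the groups on both scales, while the scaled Bbc3 ranges overlap. Of all genes, 73% lay above i4F without overlap as deposited, and 21.1% below it once scaled. Zmat3 had 3.97, 3.58, 2.71, 1.86 and 4.79 FPKM in libraries labelled p53 KO and 0.713, 0.992, 2.32, 2.27 and 2.95 FPKM in i4F as deposited, and 1.01 to 1.43 FPKM against 1.5 to 3.71 FPKM scaled (log2 fold change 0.65 and -0.67; adjusted p = 0.0218 and 0.00104). Cgrrf1 had 13.8, 12.2, 9.60, 8.04 and 15.2 FPKM in libraries labelled p53 KO and 5.37, 4.15, 4.96, 6.75 and 6.87 FPKM in i4F as deposited, and 3.50 to 6.16 FPKM against 6.72 to 11.3 FPKM scaled (log2 fold change 0.93 and -0.84; adjusted p = 0.000256 and 0.000273). On the scaled values Zmat3 and Cgrrf1, a ubiquitin ligase of the endoplasmic reticulum, lie lower under the p53 KO label, and on the deposited values higher. Rrm2b had 3.44, 2.39, 1.34, 1.15 and 2.76 FPKM in libraries labelled p53 KO and 0.491, 0.488, 0.517, 1.29 and 0.997 FPKM in i4F as deposited, and 0.636 to 0.883 FPKM against 0.787 to 1.28 FPKM scaled (log2 fold change 0.84 and -0.23; adjusted p = 0.000824 and 0.0182). Ddb2 had 7.77, 6.09, 3.49, 2.24 and 5.52 FPKM in libraries labelled p53 KO and 0.929, 1.18, 1.92, 2.54 and 1.80 FPKM in i4F as deposited, and 1.48 to 1.98 FPKM against 1.95 to 2.92 FPKM scaled (log2 fold change 1.12 and -0.33; adjusted p = 0.000559 and 0.0131). Ercc5 had 3.17, 2.56, 1.66, 1.01 and 2.64 FPKM in libraries labelled p53 KO and 0.600, 0.582, 1.06, 1.25 and 0.727 FPKM in i4F as deposited, and 0.708 to 0.806 FPKM against 0.914 to 1.61 FPKM scaled (log2 fold change 0.76 and -0.35; adjusted p = 0.00135 and 0.00201). Rrm2b and Ercc5, like Fas, needed the libraries labelled p53 KO to reach 1 FPKM in 5 libraries, and near that level the log scale is compressed. The deposited values of Rrm2b, Ddb2 and Ercc5 overlap i4F through replicate 4 of the p53 KO label, and those of Zmat3 through replicates 3 and 4.

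Other genes rose against i4F as deposited and did not pass once scaled. Xpc did not pass once scaled (log2 fold change -0.11, adjusted p = 0.456). Btg2 had 78.3, 64.8, 60.2, 40.3 and 75.4 FPKM in libraries labelled p53 KO against 8.24, 8.17, 15.1, 16.7 and 9.90 FPKM in i4F as deposited, without overlap (log2 fold change 2.38, adjusted p = 3.94e-07), and did not pass once scaled (log2 fold change 0.43, adjusted p = 0.0604). On the deposited scale 73% of all genes lay above i4F without overlap. The mTOR restrainers Sesn2 and Ddit4 were likewise higher as deposited (1.62 and 2.42) and did not pass once scaled (log2 fold change 0.21, adjusted p = 0.287 for Sesn2; log2 fold change 0.51, adjusted p = 0.319 for Ddit4). Ak1, Abhd4, Aen and Gdf15 also passed as deposited and not once scaled against i4F.

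The 3 genes below the level for testing differed widely. Eda2r had 0.287, 0.10, 0.0157, 0.0339 and 0.0381 FPKM in libraries labelled p53 KO, 0.430, 0.405, 0.330, 1.04 and 0.441 FPKM in i4F Ink4a/Arf KO and 0.0950, 0.150, 0.784, 0.958 and 0.495 FPKM in i4F pancreases as deposited. Under the p53 KO label 3 libraries lie below all 10 others and the other 2 lie within the i4F range, while most genes there were higher. In a fit with no filter it was lower on both scales, at -0.42 (SE 0.16, adjusted p = 0.0293) as deposited and -0.65 (SE 0.17, adjusted p = 0.00512) scaled. Pmaip1 had 16.5, 16.4, 3.07, 0.965 and 25.2 FPKM in libraries labelled p53 KO and at most 0.667 FPKM in any other pancreas; in the same fit it was higher on both scales, at 2.97 (SE 0.56, adjusted p = 0.000269) as deposited and 1.74 (SE 0.33, adjusted p = 0.000695) scaled. Polk was at 0.574 to 5.83 FPKM in libraries labelled p53 KO, 0.247 to 0.478 FPKM in i4F Ink4a/Arf KO and 0.218 to 0.660 FPKM in i4F pancreases. In the limma fit with no filter it was higher against i4F, at 1.40 (SE 0.30, adjusted p = 0.000828) as deposited and 0.32 (SE 0.12, adjusted p = 0.0396) scaled. Against i4F Ink4a/Arf KO it passed as deposited (1.43, adjusted p = 0.000669) and not once scaled (0.29, adjusted p = 0.0594).

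Within the p53 KO label the 5 pancreases differ. Replicate 4 had the lowest deposited level for 30 of the 32 genes, as it had for 91.2% of all genes tested, and for 10 of 32 once scaled (29.4% of all genes). Clps, the acinar colipase, had 1298, 4229.6, 25046, 41699.6 and 121 FPKM in the 5, against 60495 to 78363 FPKM in i4F. Sums of the 8 fibroblast markers were 529.9 to 7568 FPKM in libraries labelled p53 KO, 66.1 to 112 FPKM in i4F Ink4a/Arf KO and 53.8 to 262 FPKM in i4F, and those of the 10 macrophage markers 631 to 3424, 80.2 to 162 and 43.4 to 466 FPKM in the same order of groups, with none of these markers listed at 0 throughout a group. The acinar sums given above do not overlap between the p53 KO label and the other groups. The part of cell makeup in the pancreas results was not tested.

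Between i4F Ink4a/Arf KO and i4F pancreases, 0 of 29 genes passed by limma (0% of all genes higher, 0% lower; 1 of 29 at an unadjusted p under 0.05 as deposited, against 0.334% of all genes, and 6 of 29 scaled, against 4.78%). That deposited gene was Bax, with 9.71, 14.6, 13.5, 18.5 and 14.3 FPKM in i4F Ink4a/Arf KO and 6.02, 6.60, 12.1, 12.7 and 9.15 FPKM in i4F pancreases (log2 fold change 0.58 with SE 0.25 and adjusted p = 1.00).

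Whether the p53 KO label goes with the same difference in both tissues was tested as the kidney difference minus the pancreas difference, both against i4F. As deposited, 0 of 29 genes were higher and 23 lower (1.16% and 90.7% of all genes). On the scaled values, 7 were higher and 4 lower (23% and 24.1% of all genes). For Ccng1 the difference between tissues was -1.74 as deposited (SE 0.34, adjusted p = 3.28e-05) and 0.04 scaled (SE 0.22, adjusted p = 0.906). Sesn1, Rps27l, Dcxr and Ephx1 were among the 7, with scaled differences of 1.65, 1.70, 1.69 and 1.19 (adjusted p = 0.000138, 0.000575, 0.000584 and 0.000521); the other 3 were Bbc3, Ercc5 and Cgrrf1. Perp, Apaf1, Phlda3 and Tnfrsf10b were the 4 lower, at -0.72, -0.79, -1.09 and -0.91. Of these, Apaf1 and Tnfrsf10b could be tested only because they were high in the pancreas libraries labelled p53 KO, so their difference is a description. The sign of the difference changed with the scale for 18 of the 29 genes, for Cgrrf1 and Ercc5 past the threshold both times. How many of all genes changed sign was not counted. The 30 libraries were taken as independent, since the labels do not say which kidney and pancreas came from 1 mouse.

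The rest of the pathway was read from 2 further lists. Of 22 regulators and partners of p53, 18 were tested in the kidney, and 1, Trp53 itself, was lower in i4F p53 KO against i4F, with a list median of 0.01 against 0.03 over all genes. Mdm2, both ligase and target of p53, had 10.3, 9.30, 8.04, 9.81 and 10.1 FPKM in i4F p53 KO and 11.7, 10.8, 9.80, 10.7 and 12.0 FPKM in i4F kidneys, overlapping ranges (log2 fold change -0.19 with SE 0.09 and adjusted p = 0.373). Of 25 further targets, 18 were tested and 1 was lower, 9030617O03Rik (a synonym of Dglucy, D-glutamate cyclase), with 16.4, 24.3, 22.1, 17.9 and 10.5 FPKM in i4F p53 KO and 39.1, 45.9, 53.1, 31.1 and 36.1 FPKM in i4F kidneys (log2 fold change -1.16 with SE 0.20 and adjusted p = 0.0243). Cdkn1a, which encodes the cell cycle inhibitor p21, had 11.2, 2.72, 2.49, 6.59 and 12.1 FPKM in i4F p53 KO and 3.37, 3.80, 3.11, 16.3 and 10.4 FPKM in i4F kidneys, wide and overlapping ranges (log2 fold change -0.02 with SE 0.51 and adjusted p = 0.992). In the pancreas as deposited, 17 of 18 regulators and 16 of 19 further targets were higher against i4F and 0 lower (91.2% and 2.25% of all genes). Scaled, 6 of 18 regulators were higher and 4 lower, and 3 of 19 further targets were higher and 5 lower (34.9% and 31.2% of all genes). There 9030617O03Rik was -1.28 (adjusted p = 5.79e-08) scaled and -0.31 (adjusted p = 0.120) as deposited, while Mdm2 was -0.03 (adjusted p = 0.810) scaled and 1.64 (adjusted p = 7.09e-05) as deposited. Cdkn1a was 0.80 (adjusted p = 0.175) scaled and 2.69 (adjusted p = 0.000423) as deposited.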

How the data were processed

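Stranded poly(A) libraries were made from 1 µg of RNA with 8 PCR cycles, from RNA with integrity numbers of 7.4 to 9.4 (mean 8.0), and gave more than 24 M mapped reads per sample, per the labels' protocols. The depth of single libraries is not given in the sources used here, so no counting interval is given. Cufflinks 2.2.1, TopHat2 2.0.10, SAMtools 0.1.19, Bowtie 1.0.0, FastQC and mm10 are named in the submitters' processing notes. The deposited tables hold FPKM per gene and sample, a level that the authors set relative to gene length and mapped fragments; 1 table holds the 15 kidney and the other the 15 pancreas libraries.

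From these values log2(FPKM + 1) was taken, which understates the change of low genes. Genes at 1 FPKM or more in at least 5 of the 15 libraries of a tissue were fitted together with limma 3.58.1 (R 4.3.3), by group, with no covariate. Two-sided p-values were Benjamini-Hochberg adjusted over all genes tested, with 0.05 as the threshold. The tissue comparison used 1 fit of all 30 libraries over 10143 genes. Median-of-ratios scaling within each tissue was the alternative scale. The scripts were tested on simulated data. Python 3.11.15, pandas 2.3.3 and matplotlib 3.10.9 wrote the descriptions and figures, and coordinates are from GENCODE M21 (mm10).

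The 32 genes, their role groups and the pathway lists were chosen with earlier results of these data known. Values in every library were given for genes past a kidney threshold, for genes higher or lower in the pancreas on both scales and for genes whose scales differ in sign against i4F; other genes were named as examples of their role group. Ephx1, Dcxr, Rps27l, Sesn1, Eda2r, Pmaip1, Gdf15, Btg2, Aen and Bax were given more values than that after their values were seen.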

Additional observations from a re-analysis of the deposited data

Results flagged for a closer look

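Of 192 groups of 5 libraries (32 genes in 6 groups), 13 held a library that lay far from the other 4 relative to the range of its group, where chance alone flags about 1 in 20 groups. In the kidney these were Ephx1 at 22.4 FPKM in i4F p53 KO replicate 5 and Sesn1 at 11.8 FPKM in the same kidney. Sesn1 at 10.5 FPKM and Eda2r at 0.705 FPKM stood apart in i4F Ink4a/Arf KO replicate 1, a female kidney. Bax at 32.7 FPKM in i4F replicate 2 and Fas at 5.03 FPKM in i4F replicate 1 stood apart in i4F kidneys. In the pancreas Trp53inp1 stood apart at 29.2 FPKM in replicate 1 of the p53 KO label. Gdf15 at 3.55 FPKM and Eda2r at 1.04 FPKM did so in i4F Ink4a/Arf KO replicate 4, and Tnfrsf10b at 0.219 FPKM in replicate 5. Pmaip1 at 0.667 FPKM, Apaf1 at 0.987 FPKM and Abhd4 at 5.25 FPKM all did so in i4F replicate 4.

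The 5 genes that passed a kidney test also had a p53 KO difference that differed between tissues on the deposited values, by limma with Benjamini-Hochberg adjustment over 10143 genes. The kidney difference minus the pancreas difference, both against i4F, was -1.74 for Ccng1 (adjusted p = 3.28e-05), -1.70 for Trp53inp1 (adjusted p = 0.00110), -1.19 for Plk2 (adjusted p = 0.00823), -1.19 for Mgmt (adjusted p = 0.000237) and -1.01 for Zmat3 (adjusted p = 0.00132). On this scale 90.7% of all genes were lower by the same measure, and after scaling within each tissue none of the 5 passed.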

How the results depend on the processing

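Among kidney results, the count of 3 genes lower against i4F was 2 to 4 under every alternative, and Ccng1 and Mgmt passed in each that was run in both comparisons. The count of 5 genes lower against i4F Ink4a/Arf KO was 2 with no filter on low values, 3 of the 24 still tested with a filter of 5 FPKM, 3 from the 10 libraries of those groups alone, 3 without the female kidneys, and 2 to 8 with 1 library left out. It was 6 under median-of-ratios scaling, 7 under upper-quartile scaling and 7 with the Xist level as a covariate. Same-numbered kidneys were not treated as pairs in the main fit. For same-numbered kidneys, the deviations of log2 values from their group means were correlated over the genes tested. For i4F p53 KO and i4F these correlations were -0.0789 to 0.291, with 3 of 5 pairs over 0.1. For i4F p53 KO and i4F Ink4a/Arf KO they were -0.237 to 0.117, with 1 of 5 over 0.1. Such correlations were not computed for kidneys of unlike number, so these values cannot decide whether the numbers mark pairs. With a replicate block, 2 genes were lower against i4F (Plk2 no longer passed, adjusted p = 0.0669) and 2 against i4F Ink4a/Arf KO.

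The pancreas counts depended on the scale. Against i4F, 22 genes were higher as deposited (19 to 23 with 1 library left out), 9 of the 16 still tested with a filter of 5 FPKM (90.1% of all genes), 3 under median-of-ratios and 4 under upper-quartile scaling, and the count of lower genes was 0 as deposited, 1 with no filter and 14 under either scaling. Against i4F Ink4a/Arf KO, 20 were higher (17 to 21), 10 of 16 with a filter of 5 FPKM (90.5% of all genes) and 3 under either scaling, and 0 were lower, 1 with no filter and 15 under either scaling. The tissue difference was called for 23 genes (21 to 24), 11 under median-of-ratios and 12 under upper-quartile scaling.

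Log2 values whose sign turned round under median-of-ratios and upper-quartile scaling, in that order, were as follows for genes called on both scales in the pancreas and for genes called in the kidney. Against i4F, Bbc3 was -0.60 and -0.60, Ei24 -0.62 and -0.60, Rrm2b -0.23 and -0.23, Ddb2 -0.33 and -0.32, Ercc5 -0.35 and -0.34, Zmat3 -0.67 and -0.68, and Cgrrf1 -0.84 and -0.83. Against i4F Ink4a/Arf KO, Bax was -0.55 and -0.47, Aen -0.78 and -0.71, Ei24 -0.80 and -0.72, Ercc5 -0.34 and -0.30, Sesn1 -0.90 and -0.82, and Cgrrf1 -1.04 and -0.97. Of the 5 genes called in the kidney, 4 had a tissue difference of another sign, not past the threshold under median-of-ratios scaling, at 0.036 and 0.029 for Ccng1, 0.64 and 0.63 for Plk2, 0.28 and 0.29 for Mgmt, and 0.29 and 0.29 for Zmat3. Over all 29 genes the tissue difference changed sign for 18 under median-of-ratios scaling, and the share over all genes was not counted. Against i4F as deposited, Zmat3 no longer passed without replicate 5 of the p53 KO label or i4F replicate 1 or 2. Sesn1, set against i4F Ink4a/Arf KO, did not pass without i4F Ink4a/Arf KO replicate 2 or 3 or replicate 1, 2 or 5 of the p53 KO label. Beyond what the settings themselves alter, the cause of these changes was not tested. Upper-quartile scaling, the runs without female or Clps-rich libraries, and the single-library runs on scaled values were added after the data were seen. Without read counts, the precision of genes near or below 1 FPKM is unknown.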
